A study of Homo sapiens with 18 samples.

Results

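The genes described here are the aminoacyl-tRNA synthetases, 19 whose enzymes work in the cytoplasm and 16 whose enzymes work in mitochondria. They were picked by matching the Entrez gene identifiers of each expression file to a list of human symbols, and all 35 were found among the 25343 genes of the files. RNA was sequenced from 18 xenograft tumour libraries of HCT116, a human colon cancer line, in which the PTDSS2 gene was knocked out in every group. Dosing was oral, with 0.5% methylcellulose as the carrier, and the tumours were removed after 24 h: 6 libraries came from vehicle-dosed mice, 6 from mice given DS55980254 at 10 mg/kg and 6 from mice given 30 mg/kg. By the series title, the compound inhibits PTDSS1, the enzyme that makes phosphatidylserine beside PTDSS2, and the study asks about cancers that have lost PTDSS2. The labels do not say how many knockout clones were used, which mouse strain or age carried the tumours, or whether each library is a separate animal, so the p-values here measure the spread between libraries.

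Each synthetase joins 1 kind of amino acid to its tRNA, the step that supplies the ribosome. Mitochondria have a separate protein synthesis machinery, and most of its synthetases are encoded by their own nuclear genes, named with a final 2. GARS1 (glycine) and KARS1 (lysine) are exceptions, since each encodes both the cytoplasmic and the mitochondrial enzyme; they are counted here among the cytoplasmic genes. EPRS1 is a fused enzyme for glutamate and proline, FARSA and FARSB are the 2 subunits of the cytoplasmic phenylalanine enzyme, and EARS2, FARS2 and PARS2 are mitochondrial. When uncharged tRNA accumulates, or when other stress kinases phosphorylate eIF2α, the transcription factor ATF4 is translated; it is known to bind composite C/EBP-ATF response elements in genes of amino acid supply, several cytoplasmic synthetase genes among them.

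Because ATF4 targets were part of the comparison, the promoter windows of the synthetase genes were read first. RefSeq windows of 300 bases (250 before to 50 after the annotated start, GRCh38.p14) were at hand for 16 of the 19 cytoplasmic and 14 of the 16 mitochondrial genes; LARS1, VARS1, YARS1, AARS2 and VARS2 had none. The core searched was TGATGNAA, N being any base, on both strands, so that on the opposite strand it reads TTNCATCA; no second motif was searched. The 3 promoters of the genes that passed the test at 30 mg/kg are shown to 20 bases after the start, with that of MARS2, the mitochondrial partner of MARS1, as one that lacks the core; for TARS1 and for YARS2, the 1 mitochondrial gene with a match, the core and its flanks of 15 bases are shown. Capitals mark the core. The AARS1 stretch is chr16:70289487-70289756, minus strand, GARS1 chr7:30594628-30594897, plus strand, MARS1 chr12:57487818-57488087, plus strand, TARS1 chr5:33440952-33440989, plus strand, YARS2 chr12:32756072-32756109, minus strand, and MARS2 chr2:197705119-197705388, plus strand.
AARS1: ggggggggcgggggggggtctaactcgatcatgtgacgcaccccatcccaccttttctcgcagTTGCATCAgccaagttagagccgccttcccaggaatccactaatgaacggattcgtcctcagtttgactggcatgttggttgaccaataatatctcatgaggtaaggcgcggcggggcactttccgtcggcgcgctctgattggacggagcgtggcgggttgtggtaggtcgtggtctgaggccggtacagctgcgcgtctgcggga
GARS1: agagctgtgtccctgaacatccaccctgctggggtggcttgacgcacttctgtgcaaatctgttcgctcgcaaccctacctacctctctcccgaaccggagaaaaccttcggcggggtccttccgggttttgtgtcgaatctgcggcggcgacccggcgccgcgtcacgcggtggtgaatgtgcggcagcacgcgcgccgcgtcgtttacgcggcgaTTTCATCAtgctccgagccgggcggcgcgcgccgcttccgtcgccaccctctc
MARS1: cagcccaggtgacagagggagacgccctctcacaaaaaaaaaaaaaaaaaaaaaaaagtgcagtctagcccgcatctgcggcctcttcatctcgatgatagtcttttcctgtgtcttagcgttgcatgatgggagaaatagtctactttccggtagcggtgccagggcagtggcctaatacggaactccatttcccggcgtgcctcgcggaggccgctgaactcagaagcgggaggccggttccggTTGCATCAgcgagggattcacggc
TARS1: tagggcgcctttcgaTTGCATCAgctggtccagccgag
YARS2: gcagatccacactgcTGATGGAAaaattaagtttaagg
MARS2: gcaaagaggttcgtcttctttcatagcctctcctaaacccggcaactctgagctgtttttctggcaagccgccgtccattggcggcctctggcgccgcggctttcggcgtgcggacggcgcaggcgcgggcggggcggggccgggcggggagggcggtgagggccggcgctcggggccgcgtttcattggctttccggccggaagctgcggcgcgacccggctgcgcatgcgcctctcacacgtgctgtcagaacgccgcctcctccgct

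The core was present in the windows of 7 of 16 cytoplasmic genes (43.8%): AARS1, CARS1, GARS1, IARS1, MARS1, NARS1 and TARS1. It was present in 1 of 14 mitochondrial genes (7.14%), against 4.46% of all 27305 genes with a window. Counted by window instead, 3.62% of 35116 windows held it. Its first base lay at position -187 from the start in AARS1, -33 in GARS1, -13 in IARS1, -4 in MARS1 and -2 in CARS1, and downstream of the start at position 3 in TARS1 and 15 in NARS1. In AARS1, CARS1, IARS1, MARS1 and TARS1 the letters were identical, TTGCATCA on the gene's own strand, and GARS1 differed with TTTCATCA. NARS1 carried the same 8 letters in the other orientation, TGATGCAA, while YARS2 had TGATGGAA at position -197. A match is a run of letters in a reference window and was not measured as a bound site in these tumours.

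Total expected counts, the estimated number of reads per gene summed over genes, ran between 3435423 and 8538792 in 17 libraries and came to 433981 in replicate 2 of the 10 mg/kg group. That library stood apart in other ways: its summed CPM (counts scaled to a common library size, normalised by TMM) of 6 fibroblast markers was 317, against at most 106 in the rest of its group, and its summed endothelial markers were 105, against at most 20.6. In vehicle libraries, 6 epithelial markers of HCT116 summed to between 5193 and 6862 CPM, though 1 of them, KRT20, averaged 1.19 CPM. Of 6 fibroblast markers only DCN was at 0 in all vehicle libraries, and COL1A1 averaged 86.8 CPM there. Of 6 endothelial markers only EMCN was at 0 in all vehicle libraries, and VWF averaged 4.03 CPM there. Summed fibroblast markers ranged over 69.3 to 92.5 CPM at 30 mg/kg and 61.8 to 109 CPM with vehicle. Of 5 erythroid markers, 2 (HBA2 and HBB) were at 0 in every 30 mg/kg library. The part of host or stromal RNA in the synthetase values was not tested. At vehicle, 10 and 30 mg/kg, PTDSS1 averaged 76.8 ± 4.94, 64.7 ± 5.45 and 67.9 ± 4.54 CPM, and PTDSS2 averaged 8.75 ± 2.30, 9.43 ± 2.32 and 7.91 ± 3.36 CPM (SD, n = 6 each); PTDSS2 reads outside an edited site say nothing of the knockout, whose position the labels do not give. Over all 14074 genes that passed the filter on low counts, edgeR's quasi-likelihood test called 66 genes at 10 mg/kg (59 higher, 7 lower) and 87 at 30 mg/kg (80 higher, 7 lower) against vehicle at an adjusted p under 0.05. All 35 synthetase genes passed that filter.

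In vehicle tumours the cytoplasmic genes were the more abundant set on the length-corrected TPM scale. Their group means spanned 38.1 TPM (FARSB) to 152 TPM (VARS1, valine) with a median of 95.5 TPM, and the mitochondrial genes spanned 9.35 TPM (PARS2, proline) to 67.5 TPM (IARS2, isoleucine) with a median of 22.4 TPM. Near the middle of the cytoplasmic range, NARS1, GARS1, IARS1, KARS1, AARS1 and FARSA had means between 95.5 ± 7.05 and 103 ± 14.7 TPM (SD, n = 6). Their SDs ran from 4.69 TPM (AARS1) to 14.7 TPM (FARSA), and their order was not tested. The lowest 3 mitochondrial genes, PARS2 at 9.35 ± 1.76, WARS2 at 9.62 ± 1.77 and MARS2 at 9.89 ± 2.12 TPM, lay closer to each other than their spread. SARS2, CARS2, HARS2 and IARS2 had means above that of FARSB, so the 2 ranges met. The coefficient of variation over the 6 vehicle libraries had a median of 8.66% for cytoplasmic genes (2.72% for LARS1 to 16.03% for FARSA) and 13.3% for mitochondrial genes (5.09% for IARS2 to 21.6% for MARS2).

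At 30 mg/kg, transcripts of 3 cytoplasmic synthetases rose against vehicle: GARS1, AARS1 (alanine) and MARS1 (methionine), by 1.52-, 1.43- and 1.40-fold. None of the 16 genes listed as mitochondrial passed the test and none of the 35 fell. GARS1, counted here as cytoplasmic, also encodes the mitochondrial glycine enzyme. The 3 genes stand among 35 members, while 0.568% of all tested genes were called higher in this comparison; the members were chosen with earlier results of these data in view, so the count is a description.

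GARS1 had a lowest, median and highest value of 119.5, 133 and 139 CPM in vehicle libraries, 111, 180.3 and 195 CPM at 10 mg/kg, and 177, 193 and 261 CPM at 30 mg/kg. All 6 libraries at 30 mg/kg lay above the highest vehicle library, and 5 of 6 did at 10 mg/kg, the exception being the shallow replicate 2. The log2 fold change at 30 mg/kg was 0.60 ± 0.12 (SE; edgeR, adjusted p = 0.00744). AARS1 had 156, 166 and 187 CPM in vehicle libraries, 175, 227 and 263 CPM at 10 mg/kg, and 214, 235 and 310.1 CPM at 30 mg/kg. Its 30 mg/kg and vehicle groups did not overlap, and replicate 2 was the only 10 mg/kg library inside the vehicle range; for GARS1 that library was below it. Its log2 fold change at 30 mg/kg was 0.51 ± 0.11 (edgeR, adjusted p = 0.0198). MARS1, whose product starts every cytoplasmic protein chain by charging the initiator tRNA and sits in the multisynthetase complex, had 102, 116 and 126 CPM in vehicle libraries, 122, 153 and 182 CPM at 10 mg/kg, and 138, 155 and 191 CPM at 30 mg/kg. The pattern was the same, with no overlap at 30 mg/kg and 5 of 6 libraries above the vehicle range at 10 mg/kg. Its log2 fold change at 30 mg/kg was 0.48 ± 0.10 (edgeR, adjusted p = 0.0202).

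**Figure D1:**
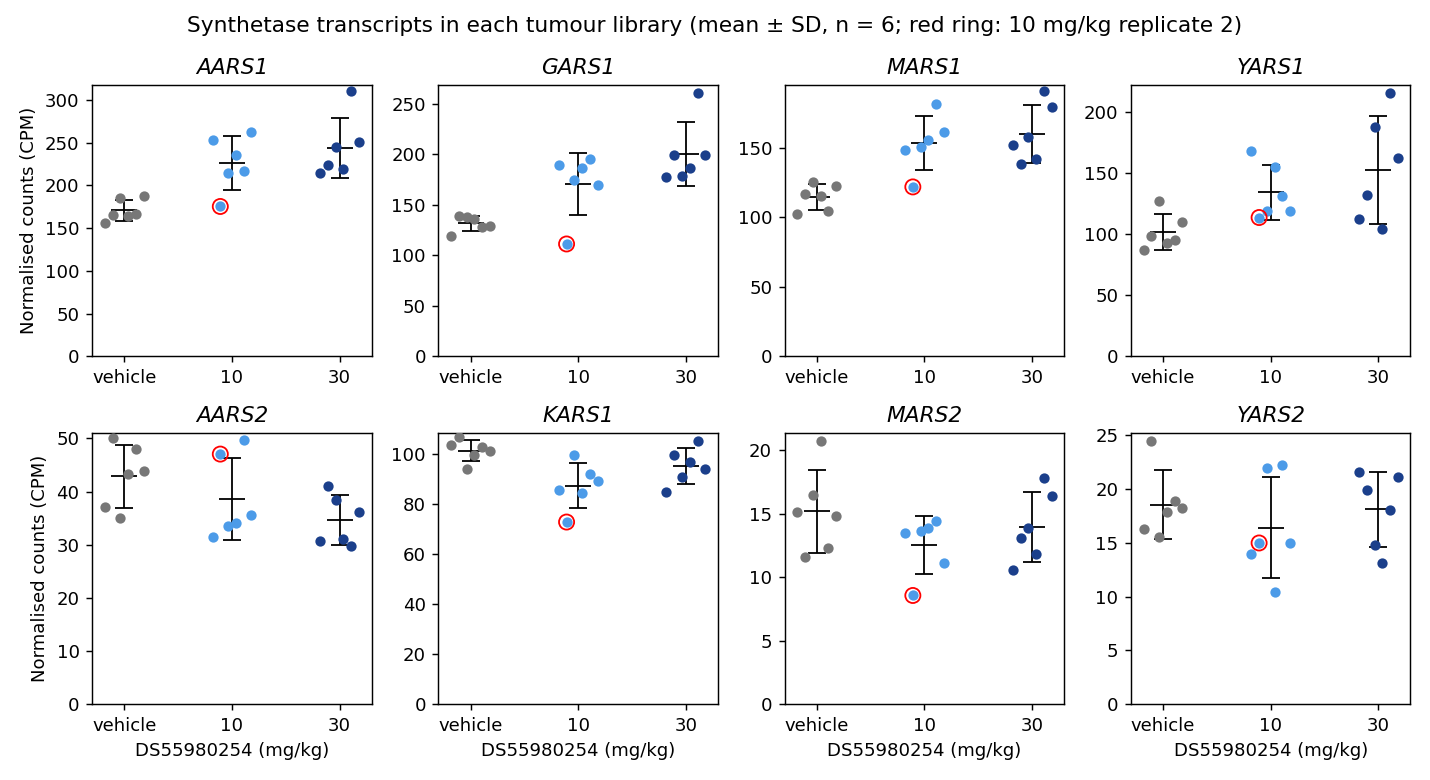
Normalised counts (CPM, linear axis starting at 0) of 8 synthetase genes in each library at vehicle, 10 and 30 mg/kg; each point is 1 library, the bars are mean ± SD of 6, and the red ring marks the shallow 10 mg/kg replicate 2. AARS1, GARS1 and MARS1 at 30 mg/kg lie wholly above vehicle, while AARS2, KARS1, MARS2 and YARS2 overlap vehicle at both doses.

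These 3 genes were also the only members whose 30 mg/kg libraries all lay above all vehicle libraries, which 1.25% of tested genes did (176 genes). The GARS1 call held with each of the 18 libraries left out in turn, at an adjusted p of up to 0.0324 (edgeR). The AARS1 call was lost, at adjusted p between 0.051 and 0.0719, without vehicle replicate 1, 2, 4 or 5 or without 30 mg/kg replicate 5 or 6; the MARS1 call was lost, at 0.0504 to 0.0817, without vehicle replicate 1, 4 or 5 or 30 mg/kg replicate 6. Without 10 mg/kg replicate 2, whose counts enter the shared estimate of spread, 5 members passed at 30 mg/kg, these 3, CARS1 and TARS1, while the calls over all genes also went up, to 182 of 14145 genes beside 87 with all libraries. No member passed when genes with low counts were kept in the test or when the deposited TPM values were tested with limma, where the adjusted p of GARS1 was 0.102 with low counts kept and 0.594 to 0.621 on TPM.

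YARS1, the tyrosine enzyme, had as large a difference with more scatter. It had 86.8, 96.6 and 127 CPM in vehicle libraries, 113, 125 and 168 CPM at 10 mg/kg, and 104, 147 and 215 CPM at 30 mg/kg, so that 4 of 6 libraries at the higher dose exceeded the vehicle range. The log2 fold change of 0.58 ± 0.16 did not pass (edgeR, adjusted p = 0.110); YARS1 passed with DESeq2 (adjusted p = 0.0308), with limma-voom (0.0473) and without 30 mg/kg replicate 4 (0.0411, edgeR). CARS1 (cysteine), with 107 ± 18.9 CPM at 30 mg/kg and 74.8 ± 8.48 CPM with vehicle, and SARS1 (serine), with 160.5 ± 18.3 CPM at 30 mg/kg and 127 ± 17.5 CPM with vehicle (SD, n = 6 each), did not pass either (edgeR, adjusted p = 0.146 and 0.269). With GARS1, AARS1 and MARS1, these were the 6 cytoplasmic genes higher at an unadjusted p under 0.05 (edgeR). Of all 14074 tested genes, 588 were higher at that p and 7.9% differed in either direction.

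Other cytoplasmic genes gave no call. TARS1 (threonine) had 127, 142 and 159.8 CPM in vehicle libraries, 44.9, 162 and 179 CPM at 10 mg/kg, and 152, 179 and 199 CPM at 30 mg/kg. Of its 30 mg/kg libraries, 5 of 6 were above the vehicle range, and the log2 fold change of 0.31 ± 0.16 had an adjusted p of 0.682 (edgeR); the low value at 10 mg/kg was the shallow library. EPRS1 had 172, 185 and 227 CPM in vehicle libraries, 113, 183 and 249 CPM at 10 mg/kg, and 187, 226 and 257 CPM at 30 mg/kg, with groups that overlapped throughout. KARS1, which like GARS1 serves both compartments, had 94.1, 102 and 107 CPM in vehicle libraries, 72.7, 87.2 and 99.6 CPM at 10 mg/kg, and 84.8, 95.1 and 105 CPM at 30 mg/kg. No library at either dose exceeded its vehicle range, and its log2 fold change was -0.09 ± 0.08 at 30 mg/kg (edgeR, adjusted p = 0.923), beside 0.60 ± 0.12 for GARS1; the difference between these genes was not tested.

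The 2 subunits of the phenylalanine enzyme also gave no call. FARSA had 71.5, 89.7 and 114 CPM in vehicle libraries, 87.7, 95.3 and 167 CPM at 10 mg/kg, and 75.8, 93.2 and 122 CPM at 30 mg/kg. FARSB had 31.7, 42.9 and 45.9 CPM in vehicle libraries, 8.56, 32.8 and 45.5 CPM at 10 mg/kg, and 36.2, 42.7 and 52.6 CPM at 30 mg/kg. Both overlapped vehicle at both doses, and in the shallow library FARSA was the highest and FARSB the lowest of its group. Of 10 listed genes of the multisynthetase complex (7 synthetases and the scaffold genes AIMP1, AIMP2 and EEF1E1), 1 rose at 30 mg/kg, MARS1, and the median log2 fold change was 0.05 there and -0.15 at 10 mg/kg. AIMP1, a scaffold protein of the complex, was at 59.0 ± 6.55 CPM at 30 mg/kg and 62.7 ± 4.32 CPM with vehicle (SD, n = 6 each).

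Among the mitochondrial genes, AARS2 (alanine) had the smallest p. It had 35.04, 43.6 and 50.02 CPM in vehicle libraries, 31.6, 34.9 and 49.8 CPM at 10 mg/kg, and 29.9, 33.6 and 41.1 CPM at 30 mg/kg. The groups overlapped, and the log2 fold change at 30 mg/kg was -0.31 ± 0.13 (edgeR, adjusted p = 0.507); it was the 1 mitochondrial gene with an unadjusted p under 0.05, and in the opposite direction to AARS1. EARS2 (glutamate) had 49.8, 56.6 and 68.9 CPM in vehicle libraries, 35.4, 52.9 and 64.2 CPM at 10 mg/kg, and 43.1, 47.1 and 56.0 CPM at 30 mg/kg. TARS2 (threonine) had 23.6, 26.6 and 35.2 CPM in vehicle libraries, 20.9, 25.3 and 29.5 CPM at 10 mg/kg, and 16.6, 25.6 and 29.6 CPM at 30 mg/kg. Neither had a library at either dose above its vehicle range. FARS2 (phenylalanine) had 12.4, 15.6 and 20.3 CPM in vehicle libraries, 11.1, 14.1 and 18.8 CPM at 10 mg/kg, and 12.2, 13.8 and 14.9 CPM at 30 mg/kg. The partners of MARS1 and YARS1 overlapped vehicle at both doses: MARS2 had 11.6, 14.97 and 20.7 CPM in vehicle libraries, 8.56, 13.6 and 14.4 CPM at 10 mg/kg, and 10.53, 13.5 and 17.8 CPM at 30 mg/kg, and YARS2 had 15.5, 18.04 and 24.5, then 10.4, 14.95 and 22.2, then 13.1, 19 and 21.5 CPM in the same order of groups. Log2 fold changes at 30 mg/kg were -0.22 for EARS2, TARS2 and FARS2, -0.13 for MARS2 and -0.03 for YARS2, and adjusted p for these 5 genes was 0.739 or more (edgeR).

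At 10 mg/kg no synthetase gene passed the test, where 0.469% of all tested genes did (edgeR, adjusted p under 0.05). The unadjusted p was under 0.05 for 7 members, compared with 9.5% of all tested genes: AARS1, CARS1, GARS1, MARS1, SARS1 and YARS1 were higher and KARS1 was lower. MARS1 came nearest, with a log2 fold change of 0.44 ± 0.10 (edgeR, adjusted p = 0.0671), followed by AARS1 at 0.42 ± 0.11 (adjusted p = 0.118) and GARS1 at 0.40 ± 0.12 (adjusted p = 0.199). No member had all 10 mg/kg libraries above all vehicle libraries, which 0.689% of tested genes did. Replicate 2 bears on this: it was the lowest of its group for 15 of 19 cytoplasmic genes and for 5 of 16 mitochondrial genes. Without it AARS1, GARS1 and MARS1 passed at 10 mg/kg (adjusted p = 0.00911, 0.00702 and 0.00687, edgeR), in a fit that called 121 genes in all beside 66 with every library. Without 30 mg/kg replicate 5, which enters the shared spread, AARS1 and MARS1 passed (adjusted p = 0.046 and 0.0334, edgeR), among 76 genes in all.

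Between 30 mg/kg and 10 mg/kg no synthetase gene was called. No member passed, and neither did any gene of the 14074 (0%); at an unadjusted p under 0.05, 3.52% of all genes differed (496), among them 1 member, RARS1 (arginine), whose mean was 65.1 ± 5.71 CPM at 30 mg/kg, against 50.5 ± 15.2 CPM at 10 mg/kg (SD, n = 6 each). GARS1 differed between the doses by a log2 value of 0.20 ± 0.12, AARS1 by 0.09 ± 0.11 and MARS1 by 0.05 ± 0.10 (SE). In a trend over the dose steps 0, 1 and 2, GARS1 (0.30 ± 0.06 per step, adjusted p = 0.0114) and AARS1 (0.26 ± 0.06, adjusted p = 0.0401) rose and MARS1 did not pass (0.24 ± 0.06, adjusted p = 0.0517, edgeR), against 0.441% of all genes that rose in this test. The number of members called in the trend was 0 without vehicle replicate 1, and 4 without 10 mg/kg replicate 2 or 30 mg/kg replicate 4. It was 1, GARS1, without any other vehicle replicate, 10 mg/kg replicate 3 or 30 mg/kg replicate 3, 5 or 6. The calls over all genes moved too, from 69 with every library to 31 without vehicle replicate 1. They came to 136 without 10 mg/kg replicate 2, 60 without 30 mg/kg replicate 4, and 37 to 70 where GARS1 alone was called.

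**Figure D2:**
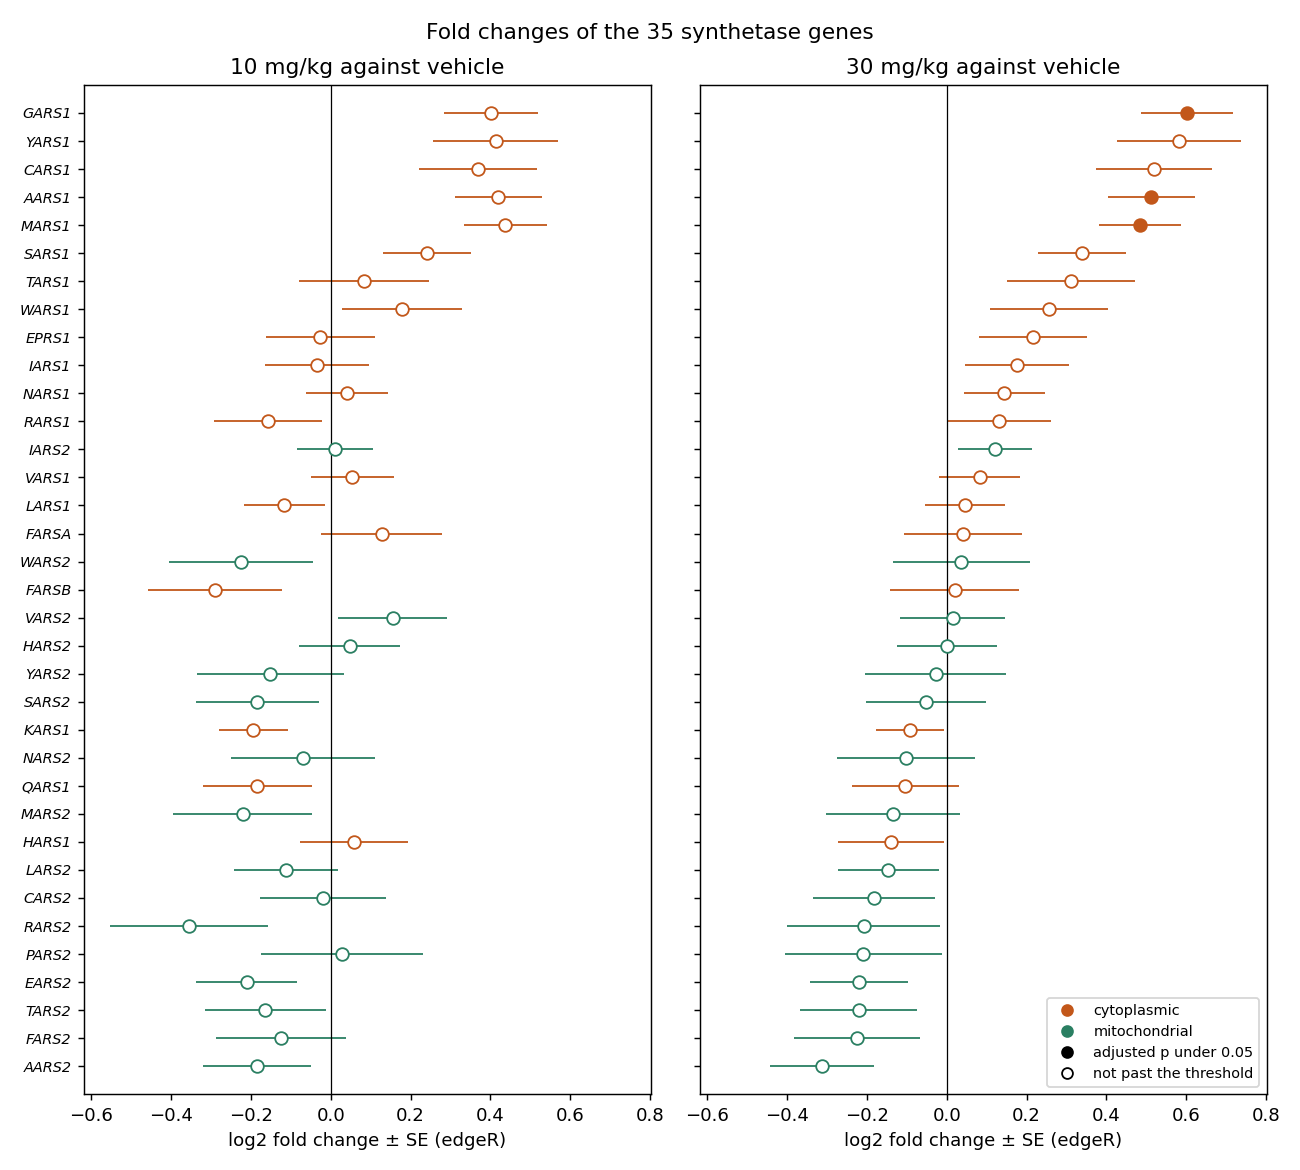
Log2 fold changes ± SE (edgeR) of all 35 genes at 10 mg/kg and 30 mg/kg against vehicle, ordered by the value at 30 mg/kg; orange marks cytoplasmic and green mitochondrial genes, and filled points have an adjusted p under 0.05. The 3 filled points, all at 30 mg/kg, are GARS1, AARS1 and MARS1, and 13 of 16 mitochondrial genes lie below 0 there.

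The fold changes of most cytoplasmic genes were above 0 at 30 mg/kg and those of most mitochondrial genes below it. At 30 mg/kg, 16 of 19 cytoplasmic fold changes were above 0 and 13 of 16 mitochondrial ones below 0; the medians of the log2 fold changes were 0.18 for cytoplasmic and -0.14 for mitochondrial genes, against -0.00 over all tested genes. At 10 mg/kg the medians were 0.06 and -0.14, with 12 of 19 above 0 and 12 of 16 below, against -0.01 over all genes. On log2(TPM + 1) the cytoplasmic median at 10 mg/kg was -0.11 and the mitochondrial one -0.25, on a scale where the median of all genes was -0.12. At 30 mg/kg both medians kept their sign in all 29 alternatives. As these are bulk samples, fewer cells of a type and less RNA per cell cannot be told apart.

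The mean log2 CPM over the 19 cytoplasmic genes was 6.77 to 6.90 in vehicle libraries, 6.28 to 7.12 at 10 mg/kg and 6.96 to 7.27 at 30 mg/kg. Over the 16 mitochondrial genes it was 4.89 to 5.03, 4.66 to 5.01 and 4.77 to 4.92 in the same groups. The cytoplasmic mean was above the whole vehicle range in each 30 mg/kg library, and the mitochondrial mean overlapped it. The difference of the 2 means within a library had a lowest, median and highest value of 1.81, 1.87 and 1.94 with vehicle, 1.57, 2.11 and 2.21 at 10 mg/kg, and 2.12, 2.17 and 2.41 at 30 mg/kg. Replicate 2 gave the lowest value at 10 mg/kg. The other 5 libraries of that group, at 2.08 or more, were above every vehicle library, as were all 6 at 30 mg/kg. The share of other gene sets whose means separate in this way was not computed, so these separations are a description. The cytoplasmic mean also includes GARS1, AARS1 and MARS1, which each lay wholly above vehicle at 30 mg/kg.

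**Figure D3:**
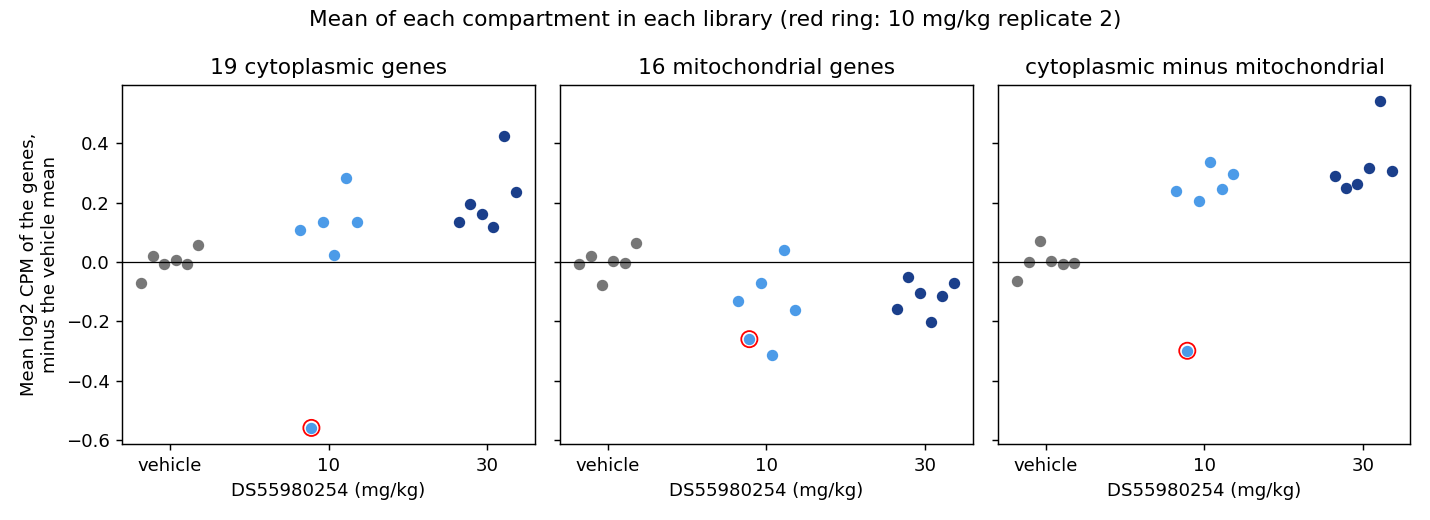
Mean log2 CPM of the 19 cytoplasmic genes, of the 16 mitochondrial genes, and their difference in each library, each minus the mean of the vehicle libraries; points are libraries at vehicle, 10 and 30 mg/kg, and the red ring marks 10 mg/kg replicate 2. The difference at 30 mg/kg lies above vehicle in all 6 libraries, and at 10 mg/kg in all but the ringed one.

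Pairing the genes by amino acid gave 17 pairs, with EPRS1 set against both EARS2 and PARS2 and FARS2 set against both FARSA and FARSB, so that some pairs share a gene. The cytoplasmic fold change was the higher of the pair in 16 of 17 pairs at 30 mg/kg (median difference in log2 fold change 0.34) and in 12 of 17 at 10 mg/kg (0.20). The TPM ratio of AARS1 to AARS2 within a library had a lowest, median and highest value of 4.77, 5.77 and 7.62 with vehicle, 5.37, 9.55 and 11.6 at 10 mg/kg, and 7.82, 10.00 and 14.9 at 30 mg/kg. For MARS1 over MARS2 the values were 5.89, 8.44 and 10.7 with vehicle, 11.7, 12.6 and 15.4 at 10 mg/kg, and 11.2, 11.8 and 15.4 at 30 mg/kg. This was the 1 pair whose ratio did not overlap vehicle at either dose. At 10 mg/kg that separation includes the shallow replicate 2, whose ratio rests on 57 counts of MARS1 and 4 of MARS2 and is imprecise. At 30 mg/kg the ratio also lay wholly above vehicle for CARS1 over CARS2 (1.65 to 3.14 at 30 mg/kg, 1.27 to 1.53 with vehicle), EPRS1 over EARS2 (3.16 to 4.05 at 30 mg/kg, 2.20 to 2.94 with vehicle) and TARS1 over TARS2 (5.92 to 10.1 at 30 mg/kg, 3.77 to 5.58 with vehicle). The share of other gene pairs with such a separation was not computed, so these 5 of 17 pairs are a description. HARS1 over HARS2 (histidine) was the pair with a negative difference, -0.14; the median ratio was 0.906 at 30 mg/kg and 0.970 with vehicle. These neighbouring genes had expected counts that were not whole numbers in 17 libraries each, and their values are uncertain; the cause of the non-whole counts was not tested.

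**Figure D4:**
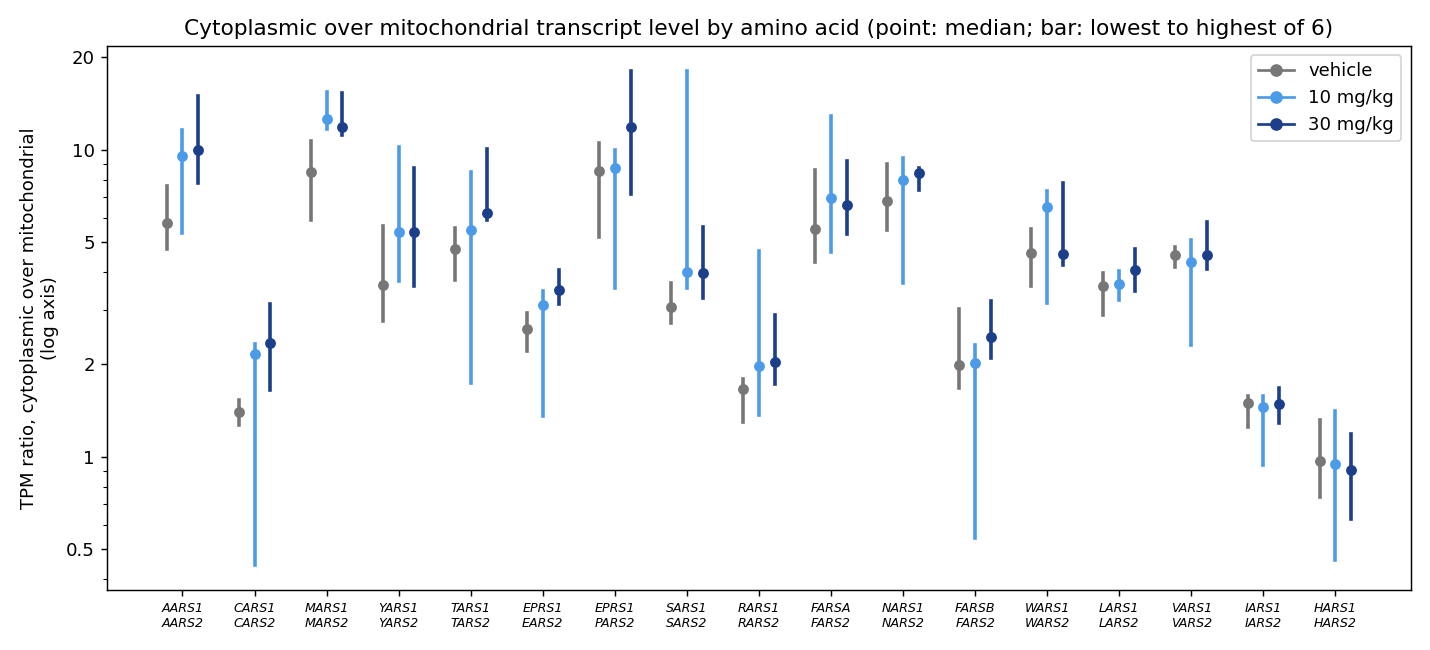
TPM of the cytoplasmic gene over TPM of its mitochondrial partner (log axis) for 17 pairs at vehicle, 10 and 30 mg/kg; the point is the median and the bar runs from the lowest to the highest of 6 libraries. In 5 pairs (AARS, CARS, MARS, TARS and EPRS1 over EARS2) the 30 mg/kg bar lies above the vehicle bar.

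Returning to the promoter windows printed above, the 7 cytoplasmic genes that hold the core had log2 fold changes of 0.14 to 0.60 at 30 mg/kg, with a median of 0.48. The 9 cytoplasmic genes with a window that lacks it (EPRS1, FARSA, FARSB, HARS1, KARS1, QARS1, RARS1, SARS1 and WARS1) spanned -0.14 to 0.34 with a median of 0.04. At 10 mg/kg the medians were 0.37 and -0.03. GARS1, AARS1 and MARS1 all hold the core, and so do IARS1 (0.18) and NARS1 (0.14), whose values were low, while SARS1 at 0.34 has no match in its window. YARS2, the mitochondrial gene with a match, was at -0.03, and the 13 mitochondrial genes without one had a median of -0.15. The groups of genes overlap, and the genes were not tested as groups.

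**Figure D5:**
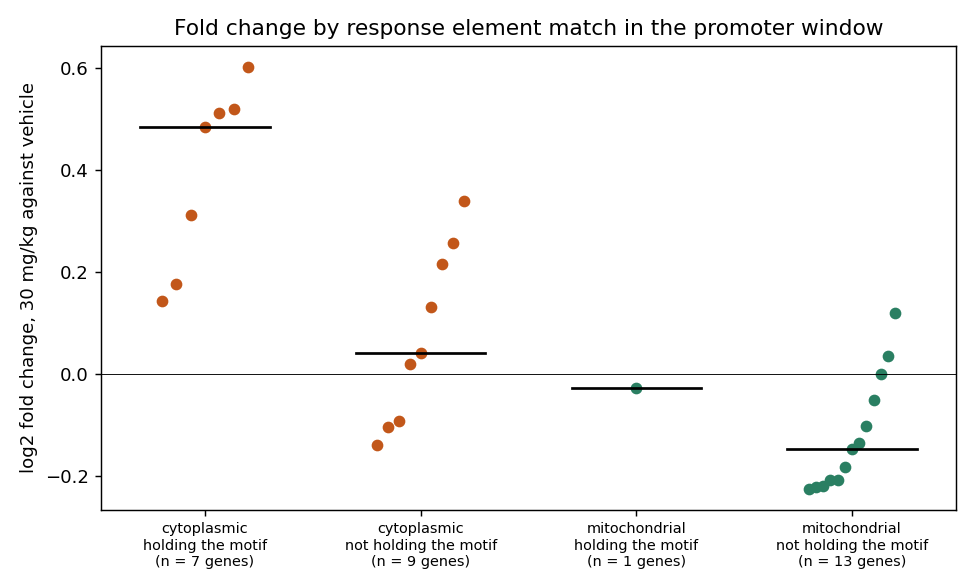
Log2 fold change at 30 mg/kg against vehicle for each synthetase gene with a promoter window, split by compartment and by whether the window holds the response element core; points are genes and lines are medians. The 7 cytoplasmic genes holding the core lie at 0.14 to 0.60, and the 9 not holding it at -0.14 to 0.34.

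The surrounding pathway genes were read from lists that, like the members, were chosen with earlier results of these data known. Of 11 genes for the sensing of uncharged tRNA and for ATF4 itself, 2 rose at both doses: TRIB3, a pseudokinase induced by ATF4, and CEBPG, a partner of ATF4 on response elements. Of all 14074 tested genes, 59 were higher at 10 mg/kg and 80 at 30 mg/kg. TRIB3 had 19.3, 22.7 and 29.8 CPM in vehicle libraries, 32.5, 37.9 and 64.2 CPM at 10 mg/kg, and 31.7, 41.6 and 44.9 CPM at 30 mg/kg, with no overlap between either dose and vehicle (adjusted p = 0.0153 and 0.00307, edgeR). CEBPG had means of 71.5 ± 10.3 CPM at 10 mg/kg, 70.03 ± 5.35 CPM at 30 mg/kg, and 49.5 ± 4.69 CPM with vehicle (SD, n = 6 each). ATF4 had 309, 376 and 458 CPM in vehicle libraries, 402, 493 and 584 CPM at 10 mg/kg, and 426, 573 and 693 CPM at 30 mg/kg, a log2 fold change of 0.60 ± 0.14 at the higher dose that did not pass (edgeR, adjusted p = 0.0520). EIF2AK4, the kinase that uncharged tRNA activates, was at -0.05 and EIF2AK3, its counterpart in the endoplasmic reticulum, at 0.23 on the log2 scale at 30 mg/kg; neither passed.

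Of 17 ATF4 targets of amino acid supply, 3 rose at 30 mg/kg and 1 at 10 mg/kg, with medians of 0.35 and 0.24 on the log2 scale. Over all 14074 tested genes, 80 (0.568%) rose at 30 mg/kg and 59 at 10 mg/kg. ASNS, which makes asparagine, had 25.4, 30.7 and 38.6 CPM in vehicle libraries, 23.5, 42.6 and 56.0 CPM at 10 mg/kg, and 45.2, 53.8 and 77.5 CPM at 30 mg/kg. Its 30 mg/kg libraries all exceeded vehicle (1.80-fold, adjusted p = 0.00426, edgeR). SLC7A11, the cystine importer, rose 2.06-fold at 30 mg/kg, and CHAC1, which degrades glutathione, rose 2.98-fold at 10 mg/kg and 3.64-fold at 30 mg/kg (edgeR, adjusted p = 0.00126, 0.0149 and 0.00124). None of 6 cytoplasmic elongation factor genes and none of 9 mitochondrial translation factor genes passed at either dose (edgeR, adjusted p under 0.05). Medians of the log2 fold changes of these lists at 30 mg/kg were 0.01 and -0.01; EEF1A1, the elongation factor that carries charged tRNA to the ribosome, had 4055 ± 453 CPM at 30 mg/kg and 4065 ± 273 CPM with vehicle (SD, n = 6 each).

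Some member values rest on reads that neighbours may share. In RefSeq, 11 of the 35 genes overlap another gene counted in these files, and the sources used here do not say whether counting used strand. MARS1 overlaps DDIT3, which encodes the ATF4-induced factor CHOP; DDIT3 averaged 18.5 ± 7.89 CPM at 30 mg/kg and 13.8 ± 3.17 CPM with vehicle (SD, n = 6 each), while MARS1 averaged 160.3 ± 20.9 CPM at 30 mg/kg and 115 ± 9.43 CPM with vehicle. YARS1 overlaps S100PBP and had non-whole counts in 7 libraries. GARS1 and AARS1 overlap no gene counted in the files and had whole counts in all 18 libraries, as did MARS1.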

How the data were processed

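The libraries were made from 5 ng of total RNA with a stranded pico-input total RNA kit, per the labels' protocols. The deposited files give expected counts (estimated reads per gene) and TPM, both computed by the authors; STAR 2.4.2a and the builds hg19 and mm10 are named in the submitters' processing notes, without their roles. The quantifier, the annotation and the way human and mouse reads were separated were not given in the sources used here. Symbols were assigned to 25220 of 25343 Entrez identifiers from a RefSeq table (GRCh38.p14), which also gave the promoter windows; no coordinates were taken from the files.

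Expected counts were rounded, filtered with filterByExpr, normalised by TMM and fitted over all 18 libraries with edgeR 4.0.16 (robust quasi-likelihood, R 4.3.3); p-values were adjusted by Benjamini-Hochberg over 14074 genes at a threshold of 0.05. Log2 CPM used a prior count of 2. The fit was also run on simulated data, with planted changes larger than those of AARS1 and MARS1 at 30 mg/kg. The outcome of that run is not reported here. Alternatives used DESeq2 1.42.0, limma 3.58.1 and log2(TPM + 1) or log2(TPM + 0.1). The synthetase genes and the other lists were chosen with earlier results of these data known. A list of further synthetase and tRNA-related genes is not reported here. By rule, values by library are given for members past the threshold in any test, the 4 cytoplasmic and 4 mitochondrial genes with the smallest p at 30 mg/kg, GARS1, KARS1 and the partners of these genes, 15 in all, and for ATF4, TRIB3, ASNS and up to 4 genes of another list that passed. A library's depth limits counting precision, and the 433981 counts of 10 mg/kg replicate 2 make its values the least precise.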

Additional observations from a re-analysis of the deposited data

Results flagged for a closer look

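Within groups of 6, a library was singled out when the gap from the highest or lowest value to its nearest neighbour, divided by the range of the group, exceeded Dixon's 95% critical value. Over 45 groups tested (15 genes in 3 groups), 6 were singled out, and chance alone gives about 1 in 20. Of these, 3 were in the shallow 10 mg/kg replicate 2: GARS1 at 111 CPM (the others 169.6 to 195), TARS1 at 44.9 CPM (154 to 179) and FARSA at 167 CPM (87.7 to 104). GARS1 was 261 CPM in 30 mg/kg replicate 5 (177 to 199 in the others), so the highest value of the most strongly called member came from 1 library; the call held without it. In vehicle libraries, FARSB was 31.7 CPM in replicate 3 (41.6 to 45.9) and YARS2 was 24.5 CPM in replicate 2 (15.5 to 18.9).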

How the results depend on the processing

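The fold changes of AARS1, GARS1 and MARS1 at 30 mg/kg stayed positive in all 29 alternatives, between 0.43 and 0.64 on the log2 scale; the number of calls moved more. At 10 mg/kg (0 members called) the count was 1 with DESeq2 size factors, 2 with library totals alone, 1 with a filter of at least 5 CPM in 6 libraries, 3 with the DESeq2 test, 4 with limma-voom sample weights, 4 without the 3 libraries highest in endothelial markers (chosen after seeing the data), and 0 to 3 with 1 library left out. At 30 mg/kg (3 called) it was 0 with no filter on low counts, 0 on log2(TPM + 1) and 0 on log2(TPM + 0.1), 5 with DESeq2, 5 with limma-voom and 1 to 5 with 1 library left out. For the trend (2 called) it was 0 with no filter, 0 on either TPM scale, 5 with DESeq2, 5 with limma-voom, 4 without the 3 libraries and 0 to 4 with 1 library left out. Over all genes, the trend called 41 with no filter, 3 on either TPM scale, 172 with DESeq2 and 328 with limma-voom. It called 216 genes without the 3 libraries and 31 to 136 with 1 library left out, beside 69 in the main fit. Over all genes, the count ran from 11 on log2(TPM + 0.1) to 235 with limma-voom at 10 mg/kg (66 reported) and from 23 to 315 at 30 mg/kg (87 reported). A replicate block left 1 call at 30 mg/kg (GARS1) and 0 in the trend, among 60 and 33 calls over all genes. Same-numbered libraries did not deviate together (correlations of -0.281 to 0.224 over 18 pairs, and 1 library matched its own number best), so the numbers were not taken to pair the samples. The mitochondrial median at 10 mg/kg was -0.25 on log2(TPM + 1) and -0.26 on log2(TPM + 0.1). Values near 0 changed sign: EPRS1 at 10 mg/kg was 0.042 with limma-voom, 0.114 without the 3 libraries and -0.126 to 0.0547 with 1 library left out; TARS1 at 10 mg/kg was -0.188 on log2(TPM + 1), -0.195 on log2(TPM + 0.1) and 0.0327 to 0.215 with 1 library left out; FARSA at 30 mg/kg was -0.0184 with limma-voom, -0.0384 without the 3 libraries and -0.034 to 0.113 with 1 library left out. FARSB at 30 mg/kg was -0.0102 with library totals, -0.031 with limma-voom, -0.0491 without the 3 libraries and -0.045 to 0.0642 with 1 library left out, and YARS2 at 30 mg/kg was -0.0859 to 0.0733 with 1 library left out. The cause of these changes was not tested. No library of an unedited HCT116 tumour is part of the comparison, and libraries of one group may share a culture or a day that the labels do not record.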
